A study of Mus musculus with 12 samples.

Results

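The collagen genes are the protein-coding genes whose symbol is Col, a number, the letter a and a number. The deposited count table held 44 of them among 56748 genes. Levels were measured by RNA sequencing of whole lung from mice carrying MMTV-PyMT, a transgene with the mouse mammary tumour virus promoter and the polyoma middle T oncogene that gives mammary tumours and lung metastases. The 12 libraries came from 3 genotypes, with 4 libraries each, taken at 4.5 months and kept in RNAlater. S1pr1 KO mice carried MMTV-Cre, S1pr1fl/fl and MMTV-PyMT, C3 KO mice carried MMTV-Cre, C3Tdt and MMTV-PyMT, and WT mice carried MMTV-Cre and MMTV-PyMT, so that the controls also had the recombinase and the oncogene. The MMTV promoter is known mainly from mammary epithelium, and the labels do not say in which lung cells, if any, it was active. The title of the series asks how conditional loss of C3, the central complement protein, or of S1pr1, a receptor for sphingosine-1-phosphate, bears on lung metastasis.

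Collagens are secreted or membrane-bound proteins whose chains wind around each other into a helix. Fibrillar collagens (types I, III and V in most tissues, II and XI in cartilage) give tensile strength to the lung's airway walls, vessels and septa, and are made mainly by fibroblasts. Type IV chains form the sheet-like network of basement membranes under epithelium and endothelium: the Col4a1 and Col4a2 chains do so nearly everywhere, while the Col4a3, Col4a4 and Col4a5 chains form the network of the alveolar and glomerular basement membranes. Type VI collagen forms beaded microfilaments next to cells, fibril-associated collagens sit on the surface of fibrils, and transmembrane collagens are anchored in the plasma membrane.

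Several of these genes lie next to each other. On GRCm39, the build of the deposited coordinates, Col4a1 and Col4a2 stand head to head on chromosome 8 with 22 bases in both genes, Col4a4 and Col4a3 head to head on chromosome 1 with 71 bases between them, and Col4a6 and Col4a5 head to head on chromosome X with 1308 bases between them. Col3a1 and Col5a2 stand tail to tail on chromosome 1 with 24614 bases between them. RefSeq windows of 300 bases on GRCm38.p6, from 250 bases before the transcript start, were matched by symbol for 35 of the 44 genes, in 38 windows; Col1a1, Col2a1, Col4a3, Col5a2, Col9a3, Col12a1, Col14a1, Col22a1 and Col26a1 had no entry. The sequences below are the stretch shared by the windows of Col4a1 and Col4a2, the most abundant collagen transcripts and partner chains of 1 protein, and the 250 bases before the start of Col28a1, the collagen gene that passed the test against WT, of Col4a4, the type IV gene of lowest p, and of Col1a2 and Col3a1, abundant fibrillar genes shown as a contrast. Capitals mark CCAAT, the GC box GGGCGG and the TATA box TATAAA, each searched on both strands, and none of these motifs overlaps another.
Col4a1 and Col4a2, chr8:11312777-11312854, plus strand: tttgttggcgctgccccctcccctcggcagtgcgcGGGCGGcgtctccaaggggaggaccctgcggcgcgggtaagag
Col28a1, chr6:8192618-8192867, minus strand: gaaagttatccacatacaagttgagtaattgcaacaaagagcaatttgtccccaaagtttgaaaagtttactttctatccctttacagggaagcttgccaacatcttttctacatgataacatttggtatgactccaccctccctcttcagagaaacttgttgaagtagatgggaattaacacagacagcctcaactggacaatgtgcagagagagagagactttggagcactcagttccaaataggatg
Col4a4, chr1:82586850-82587099, minus strand: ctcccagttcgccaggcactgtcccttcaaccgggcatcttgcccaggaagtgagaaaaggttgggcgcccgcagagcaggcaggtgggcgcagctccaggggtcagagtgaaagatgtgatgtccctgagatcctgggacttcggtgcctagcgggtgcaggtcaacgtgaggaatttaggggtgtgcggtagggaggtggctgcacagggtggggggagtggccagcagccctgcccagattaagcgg
Col1a2, chr6:4505368-4505617, plus strand: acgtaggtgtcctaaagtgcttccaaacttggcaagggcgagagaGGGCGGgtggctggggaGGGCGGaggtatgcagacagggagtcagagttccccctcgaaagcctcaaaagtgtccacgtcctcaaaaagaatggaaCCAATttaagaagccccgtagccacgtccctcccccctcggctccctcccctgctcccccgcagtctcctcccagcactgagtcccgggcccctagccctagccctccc
Col3a1, chr1:45311288-45311537, plus strand: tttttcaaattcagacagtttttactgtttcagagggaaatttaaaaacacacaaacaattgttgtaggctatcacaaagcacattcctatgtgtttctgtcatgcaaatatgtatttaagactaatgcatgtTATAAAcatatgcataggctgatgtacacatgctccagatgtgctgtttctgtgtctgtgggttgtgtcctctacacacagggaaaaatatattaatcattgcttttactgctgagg
The shared 78 bases hold both transcript starts (11312826 for Col4a1 and 11312805 for Col4a2) and 1 GC box. Col1a2 had 1 CCAAT and 2 GC boxes and Col3a1 had 1 TATA box, while none of these letters stood in the windows shown for Col28a1 and Col4a4. A GC box was present in 60.5% of the 38 collagen windows and in 35.7% of all 32851 windows, CCAAT in 34.2% and 37.4%, and TATAAA in 13.2% and 13.6%. A match describes letters in a window and is not a measured site.

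Total counts per library lay between 32274797 and 53063470, and 26691 to 28277 genes had a count. The targeted genes did not pass the test, and in 1 library of each knockout the targeted gene was not below the WT range. S1pr1 was at 42.8, 120.3, 46.2 and 50.3 FPKM in S1pr1 KO 1 to 4 and at 96.2, 161, 104 and 108 FPKM in WT 1 to 4 (log2 fold change -0.85, SE 0.29, edgeR adjusted p = 0.153). C3 was at 92.0, 90.0, 117 and 276 FPKM in C3 KO 1 to 4 and at 198, 153, 175 and 155 FPKM in WT 1 to 4 (-0.25, SE 0.30, edgeR adjusted p = 0.813). Whether the libraries labelled S1pr1 KO 2 and C3 KO 4 carry the right label cannot be told from these levels. They are therefore named as labelled, and results that rest on them are also given without them. In what follows FPKM is the deposited level, a count scaled by the gene length the authors listed and by library size, always in library order 1 to 4. A fold change is the log2 value of an edgeR quasi-likelihood fit to the counts of all 12 libraries, with its standard error (SE), and an edgeR adjusted p is the p of that fit after Benjamini-Hochberg adjustment over 20229 genes. A gene passed when this was under 0.05. The labels do not say whether each library is from its own mouse, and a p-value here reflects only how far these libraries scatter, which may be technical.

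Collagen transcripts made up 0.213% to 0.274% of all FPKM, and the basement membrane class was the largest in each of the 12 libraries. Its 9 genes held 45.1% to 56.6% of summed collagen FPKM. The 6 type VI genes held 17.3% to 21.9%, the 11 fibrillar genes 14% to 22.0%, the 4 transmembrane genes 4.63% to 5.81%, the 9 fibril-associated genes 3.13% to 4.68% and the 3 short-chain genes 0.672% to 1.41%. Col26a1 and Col28a1, which belong to none of these structures, held 0.0302% to 0.127%. Over 12 libraries the mean level was above 100 FPKM for Col4a1 and Col4a2, from 10 to 100 FPKM for 15 genes, from 1 to 10 for 11, from 0.1 to 1 for 12 and below 0.1 for Col11a1, Col19a1, Col22a1 and Col25a1. The 6 genes Col1a1, Col1a2, Col3a1, Col4a1, Col4a2 and Col6a1 together held 63.4% to 69.9%.

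**Figure D1:**
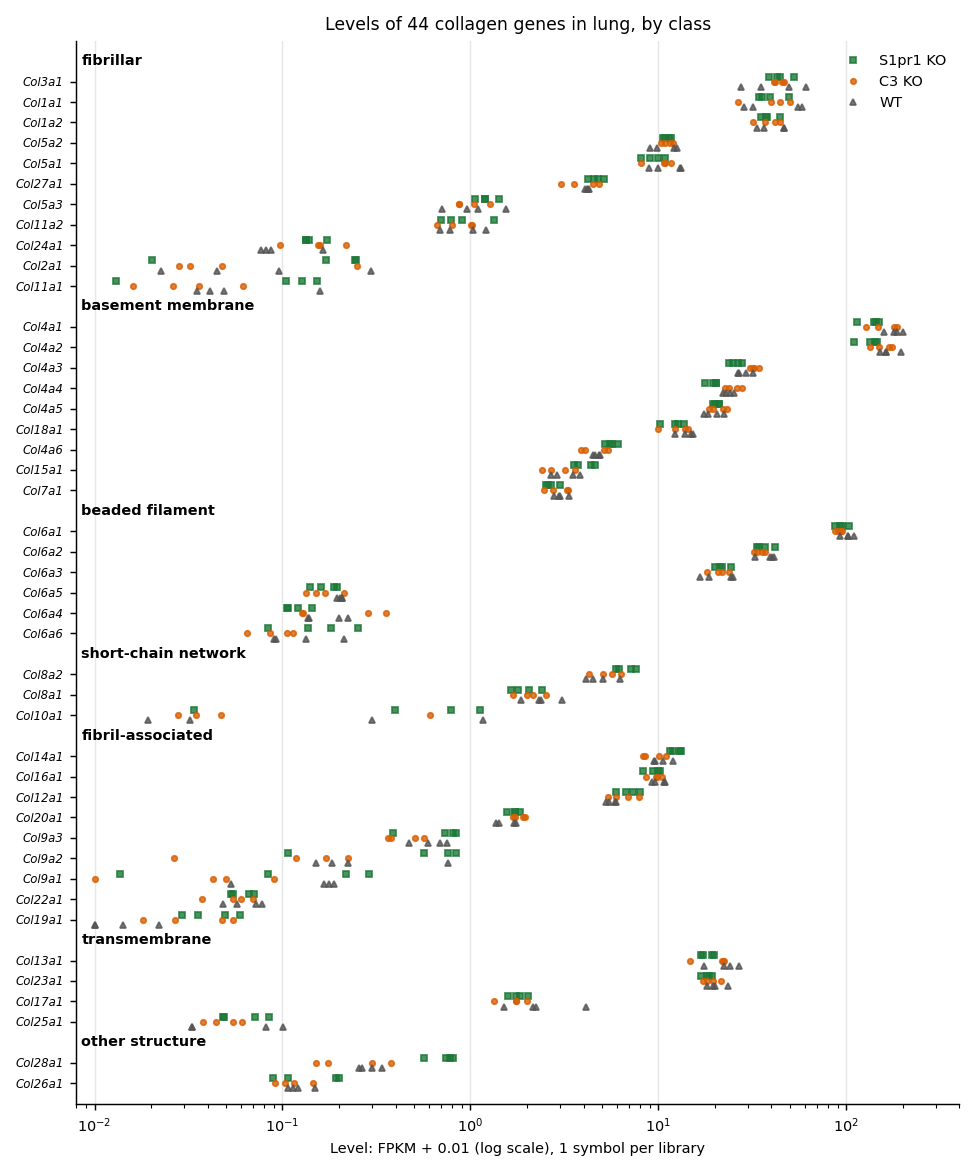
Level of each of the 44 collagen genes in each library on a log axis (FPKM plus 0.01), grouped by class, with squares for S1pr1 KO, circles for C3 KO and triangles for WT. Col4a1, Col4a2, Col6a1, Col3a1, Col1a1 and Col1a2 have the highest means and lie at the right. Col2a1, Col9a1, Col9a2, Col10a1 and Col11a1 spread furthest between libraries of the same group.

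In the order of mean level, neighbouring genes overlapped in their ranges over 12 libraries in 40 of 43 steps. The exceptions were Col6a1 above Col3a1, Col23a1 above Col18a1 and Col16a1 above Col12a1. Levels depend on the gene length the authors listed, which was 12426 bases for Col1a2 and 6563 bases for Col1a1, so that order between genes is less firm than a gene's order between libraries.

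**Figure D2:**
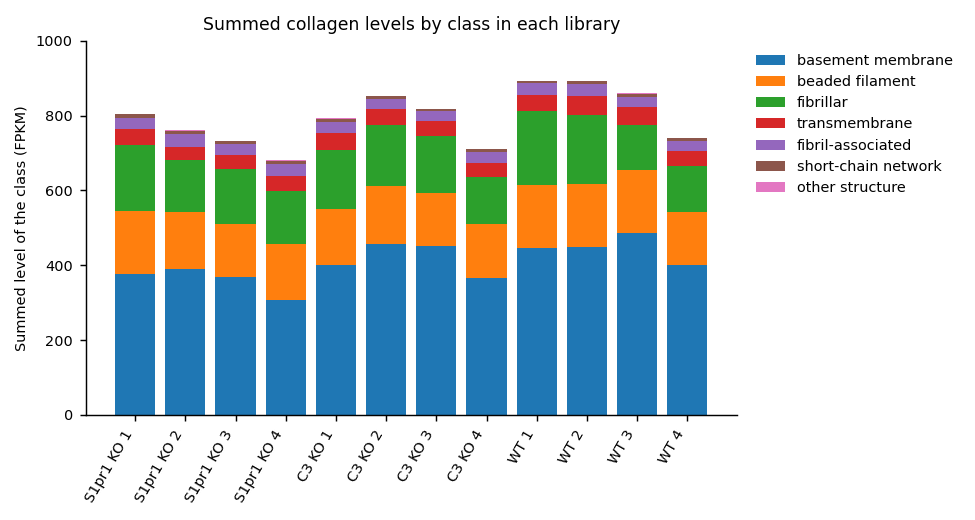
Summed FPKM of each collagen class in each library, stacked, from 0. The basement membrane part was 307 to 389 in the 4 S1pr1 KO libraries, 365 to 458 in the 4 C3 KO libraries and 401 to 487 in the 4 WT libraries.

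The summed level of all collagens was 745 ± 51.9 FPKM in S1pr1 KO, 793 ± 60.3 FPKM in C3 KO and 846 ± 72.6 FPKM in WT (SD, n = 4 each), with overlapping ranges. For the basement membrane class it was 360.2 ± 36.6 FPKM in S1pr1 KO, 418 ± 44.2 FPKM in C3 KO and 446 ± 35.2 FPKM in WT, and no S1pr1 KO library reached the lowest WT library. This sum mostly reflects Col4a1 and Col4a2, with means of 159 and 153 FPKM over 12 libraries beside 408 FPKM for the class. Of its 9 genes, 6 were lower and 3 higher in S1pr1 KO against WT. For the fibrillar class the summed level was 151 ± 17 FPKM in S1pr1 KO, 150.3 ± 17.6 FPKM in C3 KO and 156 ± 40.3 FPKM in WT. The type VI class summed to 153 ± 11.4 FPKM in S1pr1 KO, 147 ± 5.05 FPKM in C3 KO and 162 ± 13.2 FPKM in WT. Sums for the fibril-associated class were 32 ± 1.70 FPKM in S1pr1 KO, 28.1 ± 2.18 FPKM in C3 KO and 28.8 ± 2.26 FPKM in WT. These sums were not tested.

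In S1pr1 KO against WT, Col28a1 rose 2.55-fold, and no other collagen gene passed the test. The type IV chains Col4a1, Col4a2 and Col4a4 were lower in each S1pr1 KO library than in any WT library, without passing. Of 43 collagen genes tested 1 passed, beside 1.35% of all genes tested (0.821% higher, 0.534% lower). Of the 43, 24 were higher and 19 lower, with a median log2 fold change of 0.031 beside -0.0011 for all genes. An unadjusted p under 0.05 was found for 23.3% of the collagen genes (6 higher, 4 lower) and for 18% of all genes (9.94% higher, 8.11% lower). The FPKM of the groups did not overlap for 7 of the 43, namely Col28a1, Col12a1 and Col4a6 with higher and Col4a1, Col4a2, Col4a4 and Col6a5 with lower values in S1pr1 KO, while the same held for 11.5% of all genes (6.08% higher, 5.44% lower). DESeq2 called Col28a1, Col4a1 and Col4a4, where it called 6.34% of all genes, and limma voom called Col28a1, where it called 4.71%.

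In C3 KO against WT, no collagen gene passed the edgeR test, and none was called by DESeq2 or limma voom, which called 0.987% and 0.114% of all genes. Most values lay slightly below WT: 33 of 43 genes were lower and 10 higher, 23.3% higher beside 49.8% of all genes, and the median was -0.12 beside -0.00099 for all genes. Across all genes 0.00989% passed (0.00494% higher, 0.00494% lower). The collagen genes with an unadjusted p under 0.05 were Col4a3 (higher), Col6a1 and Col17a1 (lower), a share of 6.98% beside 11% of all genes (5.87% higher, 5.09% lower). No collagen gene had groups that did not overlap, beside 5.91% of all genes (3.06% higher, 2.85% lower). Both comparisons use the same 4 WT libraries.

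Between the knockouts, S1pr1 KO against C3 KO, no collagen gene passed in edgeR, where 0% of all genes did. An unadjusted p under 0.05 was found for 8 collagen genes higher and 3 lower in S1pr1 KO, a share of 25.6% beside 12% of all genes (6.58% higher, 5.46% lower). Col28a1 and Col14a1 were higher and Col4a3 and Col4a4 lower in S1pr1 KO with no overlap, beside 6.33% of all genes (3.28% higher, 3.05% lower). DESeq2 called these 4 genes, beside 1.57% of all genes, and limma voom called Col28a1, beside 0.178%. Without the library labelled C3 KO 4 edgeR called Col28a1 (1.84, edgeR adjusted p = 0.0495).

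**Figure D3:**
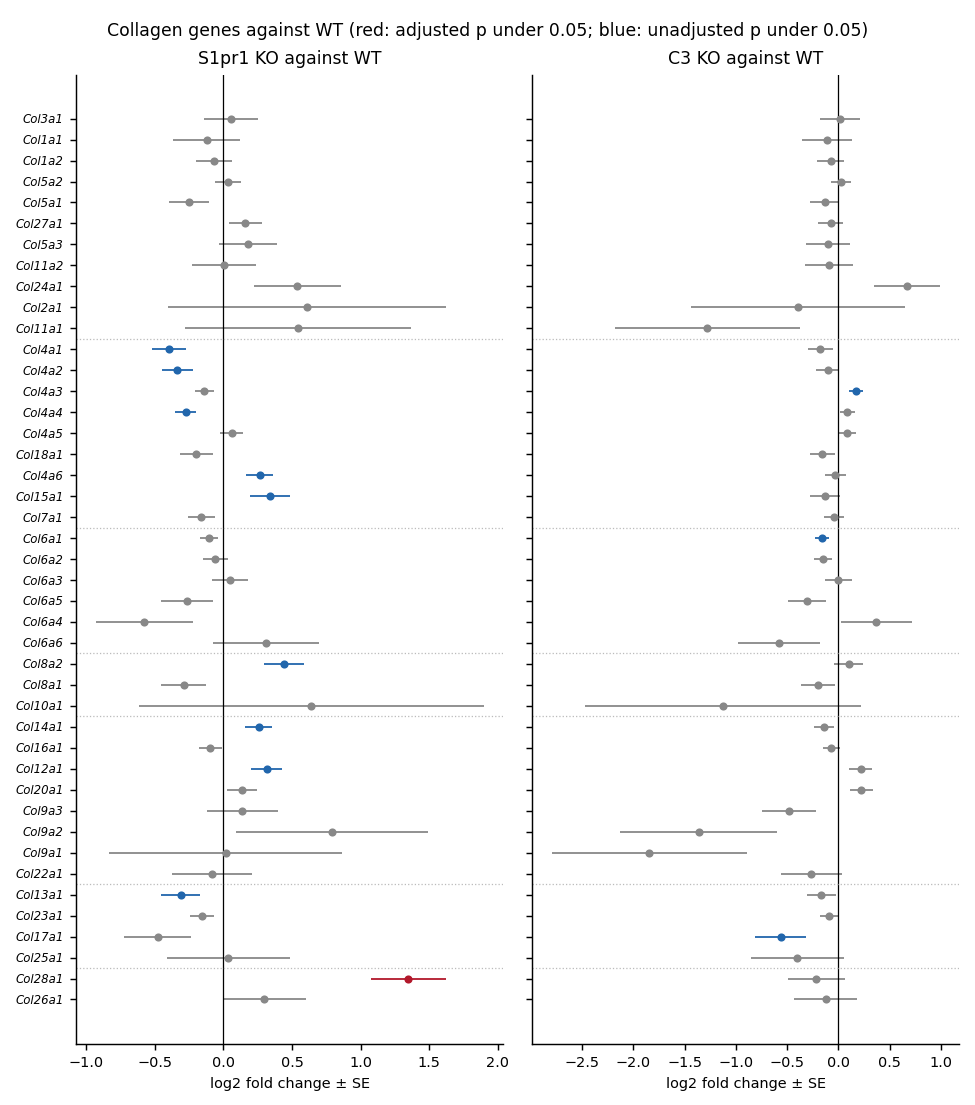
Log2 fold change with its standard error for the 43 collagen genes tested, in S1pr1 KO against WT (left) and C3 KO against WT (right), in the order of the classes with dotted lines between them. Col28a1 at 1.35 is the only value with an adjusted p under 0.05, and the cartilage genes Col2a1, Col9a1, Col9a2, Col10a1 and Col11a1 have the widest errors.

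Among the fibrillar genes none had an unadjusted p under 0.05 in any of the 3 comparisons, and for Col3a1, Col1a1, Col1a2, Col5a2, Col5a1, Col5a3 and Col2a1 the largest SD was that of WT. Col3a1, the chain of type III collagen of vessels and septa (ENSMUSG00000026043), was at 53, 38.7, 42.9 and 44.4 FPKM in S1pr1 KO, at 41.9, 45.7, 46.8 and 41.0 FPKM in C3 KO and at 60.8, 49.6, 27.4 and 35.2 FPKM in WT. WT 1 was its highest and WT 3 its lowest library of all 12. Col1a1, a chain of type I collagen, was at 49.6, 34.3, 39.1 and 35.7 FPKM in S1pr1 KO, at 44.5, 50.1, 39.6 and 26.5 FPKM in C3 KO and at 57.8, 55.2, 31.8 and 28.5 FPKM in WT. Its partner chain Col1a2 was at 44.6, 37.7, 37.5 and 35.0 FPKM in S1pr1 KO, at 44.5, 41.6, 37.1 and 31.8 FPKM in C3 KO and at 46.4, 46.7, 36.4 and 33.6 FPKM in WT. WT 1 and WT 2 were high and WT 3 and WT 4 low for both type I chains. The fold changes were 0.053 (SE 0.20) for Col3a1, -0.12 (SE 0.25) for Col1a1 and -0.072 (SE 0.13) for Col1a2 in S1pr1 KO against WT, and 0.016 (SE 0.20), -0.11 (SE 0.25) and -0.077 (SE 0.13) in C3 KO against WT, with edgeR adjusted p of at least 0.823. WT 1 and WT 2 were each the highest of the 12 libraries for 4 of the 11 fibrillar genes, and WT 3 lay above the median for none of them.

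Col5a2, a chain of type V collagen that sets fibril width, varied less: it was at 11.3, 10.8, 10.6 and 11.7 FPKM in S1pr1 KO, at 10.3, 10.8, 11.9 and 11.5 FPKM in C3 KO and at 12.1, 12.6, 9.07 and 9.80 FPKM in WT. Col5a1, its partner, averaged 9.46 ± 1.16 FPKM in S1pr1 KO, 10.3 ± 1.56 FPKM in C3 KO and 11.3 ± 2.16 FPKM in WT. Col27a1 averaged 4.65 ± 0.385, 3.97 ± 0.822 and 4.17 ± 0.0863 FPKM in S1pr1 KO, C3 KO and WT, and Col5a3 averaged 1.21 ± 0.153, 0.999 ± 0.19 and 1.07 ± 0.351 FPKM (SD, n = 4 each). Col24a1 lay between 0.067 and 0.209 FPKM.

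For the basement membrane class, Col4a1 and Col4a2 were lower in S1pr1 KO than in WT by about the same amount. Col4a1 was at 140.5, 149, 144 and 114 FPKM in S1pr1 KO, at 147, 186, 179.7 and 128 FPKM in C3 KO and at 179, 185, 199 and 159 FPKM in WT. Col4a2 was at 142, 146, 134 and 109 FPKM in S1pr1 KO, at 150.0, 174, 169 and 134 FPKM in C3 KO and at 164, 163, 195 and 152 FPKM in WT. S1pr1 KO 4 was the lowest of the 12 libraries for both, and the C3 KO libraries overlapped both other groups. The fold change in S1pr1 KO against WT was -0.40 (SE 0.12, edgeR adjusted p = 0.12) for Col4a1 and -0.34 (SE 0.11, edgeR adjusted p = 0.143) for Col4a2. In C3 KO against WT it was -0.18 (SE 0.12) and -0.11 (SE 0.11). In DESeq2 the adjusted p in S1pr1 KO against WT was 0.0376 for Col4a1 and 0.059 for Col4a2. The ratio of Col4a1 to Col4a2 FPKM stayed between 0.952 and 1.13 in the 12 libraries, while Col4a1 itself varied 1.75-fold.

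Col4a3 and Col4a4, chains of the alveolar network, were lower in each S1pr1 KO library than in any C3 KO library, without passing. Col4a4 was at 20.3, 19.6, 20.3 and 17.6 FPKM in S1pr1 KO, at 22.7, 23.7, 27.7 and 26.3 FPKM in C3 KO and at 25.4, 24.1, 22.9 and 22.1 FPKM in WT. The S1pr1 KO libraries lay below each library of both other groups. Col4a3 was at 26.7, 28, 25 and 23.8 FPKM in S1pr1 KO, at 31.9, 30.6, 34.1 and 32.4 FPKM in C3 KO and at 31.7, 29.1, 26.5 and 26.8 FPKM in WT, and here S1pr1 KO and WT overlapped. Against WT the values in S1pr1 KO were -0.28 (SE 0.075, edgeR adjusted p = 0.0826) for Col4a4 and -0.14 (SE 0.071, edgeR adjusted p = 0.329) for Col4a3. Against C3 KO they were -0.36 (edgeR adjusted p = 0.129) and -0.31 (edgeR adjusted p = 0.166), which did not pass, and DESeq2 gave adjusted p of 0.00239 and 0.00753. In C3 KO against WT they were 0.085 (SE 0.075) and 0.17 (SE 0.071), with edgeR adjusted p of 0.728 and 0.416.

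**Figure D4:**
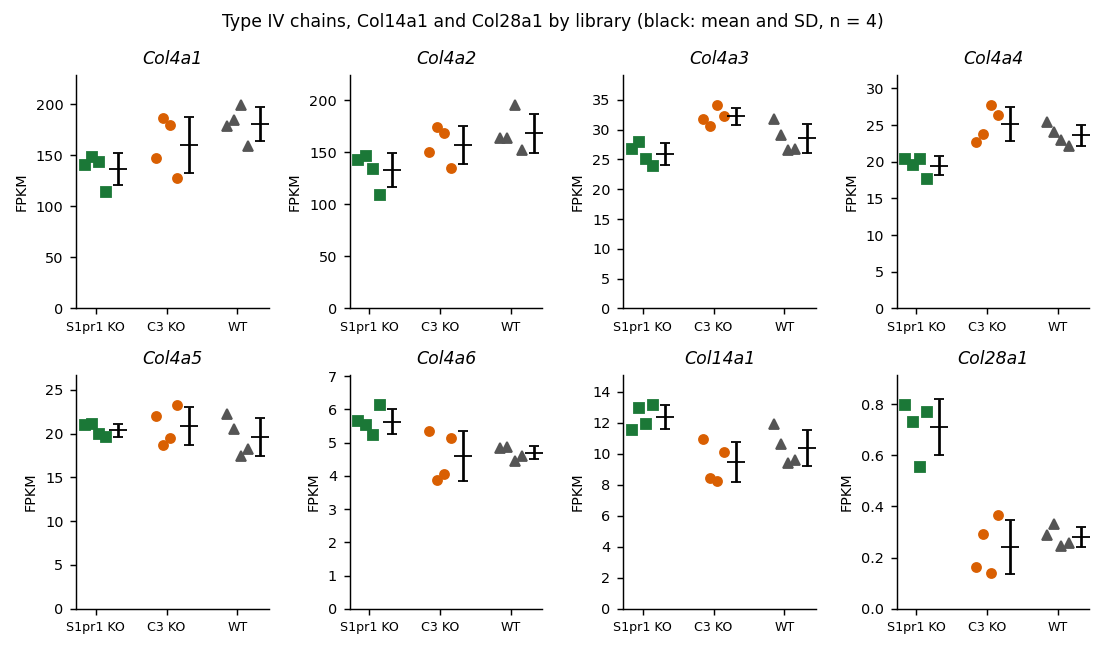
FPKM of the 6 type IV genes, Col14a1 and Col28a1 in each library, from 0, with the mean and SD of 4 libraries in black. S1pr1 KO lies below WT without overlap for Col4a1, Col4a2 and Col4a4 and above it for Col4a6 and Col28a1, and Col4a5 overlaps between all 3 groups.

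Col4a5, the third chain of the alveolar network, was at 21.0, 21.1, 19.9 and 19.6 FPKM in S1pr1 KO, at 22.0, 18.7, 19.5 and 23.2 FPKM in C3 KO and at 22.3, 20.5, 17.4 and 18.3 FPKM in WT, and the 3 groups overlapped. The ratio of Col4a3 to Col4a5 was 1.21 to 1.33 in S1pr1 KO, 1.39 to 1.75 in C3 KO and 1.42 to 1.52 in WT. Col4a6, a chain of basement membranes under bronchial epithelium and smooth muscle, was at 5.64, 5.53, 5.22 and 6.12 FPKM in S1pr1 KO, at 5.37, 3.88, 4.05 and 5.14 FPKM in C3 KO and at 4.83, 4.87, 4.46 and 4.61 FPKM in WT. It was higher in each S1pr1 KO library than in any WT library, and its fold change did not pass (0.27, SE 0.0995, edgeR adjusted p = 0.183). The ratio of Col4a5 to Col4a6 was 3.21 to 3.81 in S1pr1 KO, 4.11 to 4.81 in C3 KO and 3.91 to 4.60 in WT. In the head-to-head pairs, Col4a1 and Col4a2 were both lower in S1pr1 KO than in WT, and Col4a6 was higher beside a Col4a5 that overlapped WT. The ratios were not tested.

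Markers of cells that lie on these membranes were in part lower too, and their part in the type IV values was not tested. The summed FPKM of 10 endothelial markers was 687 to 769 in S1pr1 KO, 641 to 873 in C3 KO and 818 to 906 in WT; 8 of the 10 were lower in S1pr1 KO than in WT (median -0.13), 8 of the 10 were also lower in C3 KO than in WT (median -0.099), and 1 passed in S1pr1 KO, Gpihbp1 of capillaries (-0.45, SE 0.095, edgeR adjusted p = 0.044; in C3 KO against WT -0.50, edgeR adjusted p = 0.207). In C3 KO the library labelled C3 KO 4 had the lowest endothelial sum and the lowest Col4a1 and Col4a2, while in S1pr1 KO the library labelled S1pr1 KO 2 had the lowest endothelial sum and the highest Col4a1 and Col4a2. For 8 alveolar type 1 markers the sum was 1685 to 2163 in S1pr1 KO, 2065 to 2108 in C3 KO and 1983 to 2215 in WT. Of these markers 5 of 8 were lower in S1pr1 KO and 5 of 8 in C3 KO, each against WT, with none passing. Of all 20229 genes tested, 10162 were lower in S1pr1 KO and 10164 in C3 KO, each against WT. In whole tissue, fewer cells of a type and less RNA per cell cannot be told apart. Without the libraries labelled S1pr1 KO 2 and C3 KO 4 the fold changes in S1pr1 KO against WT were -0.44 for Col4a1, -0.38 for Col4a2 and -0.28 for Col4a4 (edgeR adjusted p = 0.0681, 0.0941 and 0.115).

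The other basement membrane genes were less abundant. Col15a1, a collagen with sulphated sugar chains around vessels and muscle, was at 3.73, 4.62, 4.39 and 3.54 FPKM in S1pr1 KO, at 3.59, 3.16, 2.68 and 2.38 FPKM in C3 KO and at 3.80, 3.51, 2.69 and 2.89 FPKM in WT. Its values in S1pr1 KO were 0.34 (SE 0.15, edgeR adjusted p = 0.245) against WT and 0.47 (SE 0.15, edgeR adjusted p = 0.275) against C3 KO. Col18a1, the precursor of endostatin, averaged 12.2 ± 1.49 FPKM in S1pr1 KO, 12.6 ± 2.05 FPKM in C3 KO and 14 ± 1.35 FPKM in WT. Col7a1, the anchoring fibril chain of epithelium, averaged 2.69 ± 0.206, 2.93 ± 0.408 and 3.01 ± 0.237 FPKM in S1pr1 KO, C3 KO and WT (SD, n = 4 each).

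Type VI collagen was led by Col6a1, at 103, 94.6, 87.3 and 92.3 FPKM in S1pr1 KO, at 89.9, 93.4, 86.6 and 94.5 FPKM in C3 KO and at 102, 103, 109.9 and 92.2 FPKM in WT. It varied only 1.27-fold over the 12 libraries, the least of the 43 genes tested. In C3 KO against WT its value was -0.16 (SE 0.068, edgeR adjusted p = 0.419). Its partner chain Col6a2 was at 41.7, 37.0, 33.7 and 34.4 FPKM in S1pr1 KO, at 35.8, 37.0, 33.3 and 32.2 FPKM in C3 KO and at 40.4, 41.1, 39.3 and 32.6 FPKM in WT, a ratio of Col6a1 to Col6a2 of 2.47 to 2.93. Col6a3 averaged 21.8 ± 1.83, 21.2 ± 2.26 and 21.1 ± 4.12 FPKM in S1pr1 KO, C3 KO and WT. The chains Col6a4, Col6a5 and Col6a6, a tandem group on chromosome 9, were all below 0.35 FPKM. Col6a4 was at 0.134, 0.0962, 0.111 and 0.0968 FPKM in S1pr1 KO, at 0.118, 0.345, 0.274 and 0.117 FPKM in C3 KO and at 0.212, 0.19, 0.127 and 0.128 FPKM in WT. Col6a4 and Col6a6 had an unadjusted p under 0.05 between the knockouts without passing: S1pr1 KO against C3 KO gave -0.95 (SE 0.35, edgeR adjusted p = 0.324) for Col6a4 and 0.89 (SE 0.395, edgeR adjusted p = 0.399) for Col6a6. Col6a6 was at 0.0737, 0.241, 0.127 and 0.17 FPKM in S1pr1 KO, at 0.104, 0.0954, 0.0545 and 0.0756 FPKM in C3 KO and at 0.124, 0.203, 0.0828 and 0.0805 FPKM in WT. Col6a5 lay between 0.13 and 0.185 FPKM in S1pr1 KO, 0.124 and 0.204 FPKM in C3 KO and 0.186 and 0.198 FPKM in WT.

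Among fibril-associated collagens Col14a1 separated the knockouts. This collagen, which binds type I fibrils, was at 11.6, 13.0, 11.9 and 13.1 FPKM in S1pr1 KO, at 10.9, 8.46, 8.27 and 10.1 FPKM in C3 KO and at 11.9, 10.6, 9.42 and 9.61 FPKM in WT. S1pr1 KO lay above C3 KO without overlap and met WT 1. The fold change was 0.40 (SE 0.10, edgeR adjusted p = 0.21) against C3 KO and 0.26 (SE 0.10, edgeR adjusted p = 0.20) against WT; DESeq2 gave adjusted p of 0.0332 and 0.152. Col12a1, found with Col1a1 fibrils in tendon and stressed tissue, was at 7.31, 7.94, 5.96 and 6.73 FPKM in S1pr1 KO, at 6.91, 5.98, 5.40 and 7.91 FPKM in C3 KO and at 5.96, 5.48, 5.23 and 5.85 FPKM in WT, a value of 0.31 (SE 0.11, edgeR adjusted p = 0.172) in S1pr1 KO against WT. S1pr1 KO 3 and WT 1 nearly touched. Col16a1 was at 9.91, 10.2, 9.33 and 8.25 FPKM in S1pr1 KO, at 10.4, 9.74, 9.83 and 8.59 FPKM in C3 KO and at 10.8, 10.8, 9.59 and 9.21 FPKM in WT. Col20a1 lay between 1.35 and 1.95 FPKM, but it shares its locus and strand with 9230112E08Rik, which had 4178 counts beside 3977 for Col20a1, so its level is uncertain.

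Col19a1 had too few counts to be tested: 7, 11, 13 and 6 in S1pr1 KO, 9, 4, 2 and 12 in C3 KO and 0, 0, 1 and 3 in WT. Both knockouts lay mostly above WT at this depth, with an overlap between C3 KO and WT. Col22a1 lay between 0.0272 and 0.0681 FPKM.

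Col8a2, a short-chain collagen of endothelial and corneal membranes, was at 7.57, 5.96, 6.18 and 7.17 FPKM in S1pr1 KO, at 5.66, 5.04, 4.29 and 6.32 FPKM in C3 KO and at 4.13, 4.46, 6.21 and 5.07 FPKM in WT. WT 3 lay within the S1pr1 KO range. Against WT the fold change of Col8a2 in S1pr1 KO reached 0.44 (SE 0.14, edgeR adjusted p = 0.135), and against C3 KO 0.34 (SE 0.14, edgeR adjusted p = 0.374). Its partner Col8a1 was at 1.64, 2.39, 1.77 and 2.03 FPKM in S1pr1 KO, at 2.00, 2.15, 1.68 and 2.52 FPKM in C3 KO and at 1.85, 2.35, 2.32 and 3.07 FPKM in WT, a value of -0.29 (SE 0.165, edgeR adjusted p = 0.384) in S1pr1 KO against WT. The 2 chains thus had values of opposite sign.

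Of the transmembrane collagens, Col13a1 was at 19.7, 16.8, 17.2 and 19.2 FPKM in S1pr1 KO, at 22.2, 22.3, 21.8 and 14.8 FPKM in C3 KO and at 24.1, 26.8, 22.4 and 17.5 FPKM in WT. S1pr1 KO overlapped WT only at WT 4 (-0.31, SE 0.14, edgeR adjusted p = 0.276). Col23a1 was at 19.2, 16.8, 18.1 and 18.6 FPKM in S1pr1 KO, at 19.5, 18.0, 17.4 and 21.5 FPKM in C3 KO and at 18.1, 19.4, 23.6 and 20.1 FPKM in WT. Col17a1, which anchors basal epithelial cells in hemidesmosomes, was at 2.01, 1.58, 1.82 and 1.75 FPKM in S1pr1 KO, at 1.99, 1.73, 1.74 and 1.33 FPKM in C3 KO and at 2.24, 4.13, 2.14 and 1.5 FPKM in WT. WT 2 stood above the other libraries. The value of Col17a1 in C3 KO against WT was -0.56 (SE 0.25, edgeR adjusted p = 0.434), and -0.21 if WT 2 was left out. For S1pr1 KO it was -0.48 (SE 0.25, edgeR adjusted p = 0.329), and -0.13 if WT 2 was left out. Col25a1 lay between 0.0231 and 0.0905 FPKM.

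Col28a1, a collagen known from basement membranes around Schwann cells of peripheral nerve (ENSMUSG00000068794, GRCm39 chromosome 6 from 7997808 to 8192617, minus strand), was the collagen gene that passed. It was at 0.795, 0.73, 0.554 and 0.769 FPKM in S1pr1 KO, at 0.164, 0.291, 0.142 and 0.366 FPKM in C3 KO and at 0.289, 0.33, 0.244 and 0.256 FPKM in WT. These levels rest on 208, 144, 103 and 128 counts in S1pr1 KO, 28, 49, 25 and 70 counts in C3 KO and 61, 59, 41 and 46 counts in WT. Each S1pr1 KO library lay above each library of both other groups. Against WT the fold change of Col28a1 in S1pr1 KO reached 1.35 (SE 0.27, edgeR adjusted p = 0.0392), and against C3 KO 1.57 (SE 0.275, edgeR adjusted p = 0.0878), which did not pass. C3 KO against WT gave -0.22 (SE 0.28, edgeR adjusted p = 0.83). The call against WT was lost when any 1 of the 8 S1pr1 KO and WT libraries was left out, with values of 1.29 to 1.45 and edgeR adjusted p of 0.0575 to 0.114. It held without both libraries that go against their labels (1.34, edgeR adjusted p = 0.0295).

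Schwann cell markers, a list of 10 genes chosen after the values had been seen, were in part higher in the same group as Col28a1, and their part in it was not tested. Of 9 tested, 8 were higher in S1pr1 KO than in WT and none passed; 3 had an unadjusted p under 0.05. Their summed FPKM was 139 to 188 in S1pr1 KO, 124 to 171 in C3 KO and 129.9 to 176 in WT, and Prx and Scn7a, which endothelium and other lung cells also express, made up most of it. Sox10, a transcription factor of Schwann cells, was at 0.16, 0.709, 1.31 and 1.09 FPKM in S1pr1 KO, at 0.17, 0.363, 0.282 and 0.244 FPKM in C3 KO and at 0.274, 1.15, 0.335 and 0.0985 FPKM in WT. S1pr1 KO 1 had the highest Col28a1 of all and a Sox10 level below all but 1 of the other libraries. Other marker lists differed more in S1pr1 KO against WT: 12 of 12 cardiomyocyte markers were higher with 2 passing, 12 of 12 ciliated cell markers were higher with 4 passing, and 10 of 10 T cell markers were lower with 2 passing. Col26a1, the other gene outside the named structures, was at 0.184, 0.079, 0.19 and 0.0973 FPKM in S1pr1 KO, at 0.081, 0.0927, 0.105 and 0.135 FPKM in C3 KO and at 0.111, 0.0972, 0.139 and 0.104 FPKM in WT.

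The collagens known from cartilage (types II, IX, X and XI) varied by library more than by genotype. Their summed level was 1.20, 4.44, 3.41 and 3.44 FPKM in S1pr1 KO, 2.69, 1.48, 1.57 and 1.23 FPKM in C3 KO and 1.87, 4.44, 1.64 and 2.15 FPKM in WT. S1pr1 KO 2, 3 and 4, C3 KO 1 and WT 2 were high. Col10a1, a marker of hypertrophic cartilage, was at 0.024, 1.12, 0.775 and 0.386 FPKM in S1pr1 KO, at 0.598, 0.0373, 0.0177 and 0.0246 FPKM in C3 KO and at 0.0223, 1.16, 0.00932 and 0.288 FPKM in WT, a range of 124-fold. Nt5dc1, on the opposite strand over Col10a1, had 8556 counts in all beside 521 for Col10a1, and the strand setting of the counting is not given in the sources used here. Col9a2 was at 0.097, 0.747, 0.553 and 0.828 FPKM in S1pr1 KO, at 0.214, 0.16, 0.108 and 0.0166 FPKM in C3 KO and at 0.173, 0.753, 0.141 and 0.212 FPKM in WT. Col9a3 was at 0.38, 0.826, 0.793 and 0.719 FPKM in S1pr1 KO, at 0.553, 0.499, 0.353 and 0.366 FPKM in C3 KO and at 0.681, 0.74, 0.583 and 0.461 FPKM in WT. Of the 3 chains of type IX collagen, Col9a2 and Col9a3 had an unadjusted p under 0.05 in S1pr1 KO against C3 KO without passing (2.16, SE 0.76, edgeR adjusted p = 0.309 for Col9a2 and 0.62, SE 0.26, edgeR adjusted p = 0.376 for Col9a3), and Col9a1 did not (1.86, SE 0.95, edgeR adjusted p = 0.468). Col2a1 lay between 0.0101 and 0.285 FPKM, Col9a1 between 0 and 0.279 FPKM, Col11a1 between 0.00294 and 0.148 FPKM and Col11a2 between 0.653 and 1.32 FPKM.

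**Figure D5:**
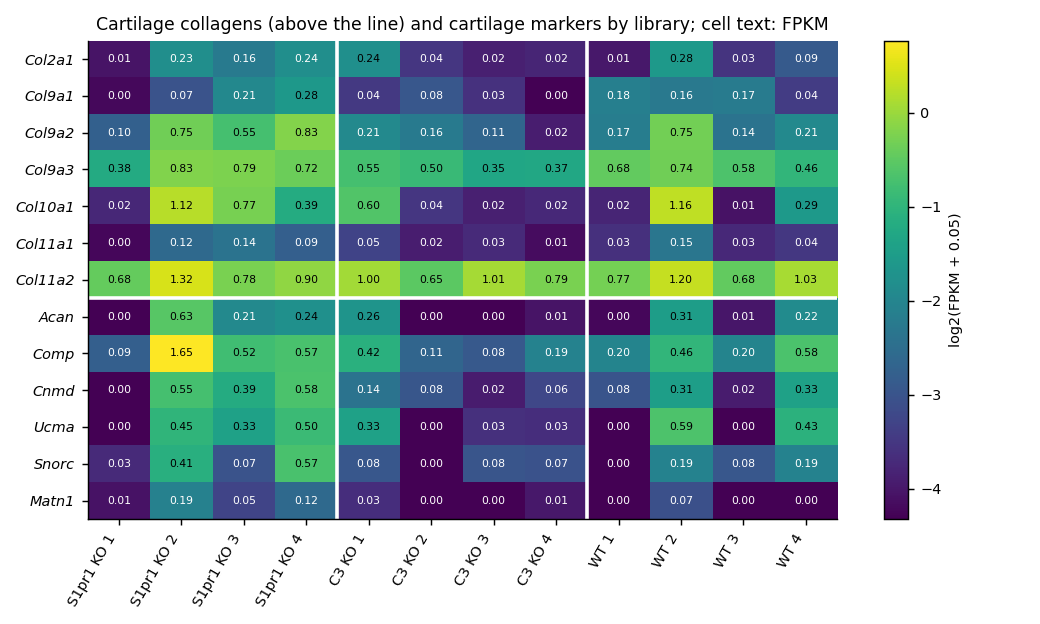
FPKM of 7 cartilage collagens (above the white line) and 6 of the 12 cartilage markers (below it) in each library, coloured by log2(FPKM + 0.05). S1pr1 KO, C3 KO and WT stand from left to right. The markers Chad, Cytl1, Hapln1, Matn3, Matn4 and Sox9 are not shown. The same libraries, S1pr1 KO 2 to 4, C3 KO 1 and WT 2, are bright for many rows of both parts, and WT 4 is bright for several markers.

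Of the 12 cartilage markers, 10, 8 and 11 lay above their median over the libraries in S1pr1 KO 2, 3 and 4, 11 in C3 KO 1 and 10 in WT 2, but also 9 in WT 4, which had a lower collagen sum. In the other 6 libraries 1 to 5 did so. Their part in the collagen values was not tested. Acan, the main cartilage proteoglycan, was at 0, 0.626, 0.212 and 0.245 FPKM in S1pr1 KO, at 0.262, 0, 0 and 0.0103 FPKM in C3 KO and at 0.00311, 0.308, 0.0117 and 0.223 FPKM in WT. Ucma, a cartilage matrix protein, was at 0, 0.45, 0.328 and 0.5 FPKM in S1pr1 KO, at 0.326, 0, 0.0314 and 0.029 FPKM in C3 KO and at 0, 0.589, 0 and 0.433 FPKM in WT. Of the 12 markers 9 were tested and none passed; 8 were higher and 1 lower in S1pr1 KO against WT, and 2 higher and 7 lower in C3 KO against WT. The summed level of the list, 51.9 to 67.6 FPKM in S1pr1 KO, 40.2 to 60.7 FPKM in C3 KO and 44.7 to 64.9 FPKM in WT, came mostly from Matn4, Chad and Cytl1. Matn4 was highest in S1pr1 KO 1 at 24.9 FPKM, Cytl1 in WT 4 at 30.0 FPKM and Chad in S1pr1 KO 4 at 20.5 FPKM. Not all markers followed the order of Acan and Ucma: Snorc was at 0.0798 FPKM in C3 KO 1 and 0.0769 FPKM in C3 KO 3, Matn3 was at 0.0165 and 0.00874 FPKM in S1pr1 KO 2 and 3, and Comp at 0.58 FPKM in WT 4 was above WT 2 at 0.462 FPKM. WT 2 and S1pr1 KO 2 also held the highest skeletal muscle sums, at 104 FPKM in S1pr1 KO 2 and 147 FPKM in WT 2, where the other libraries had 6.53 to 12.1 FPKM.

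The genes that modify, fold, cross-link, bind or sense collagen gave 92 tested genes in 8 lists, and none passed the edgeR test in any comparison. An unadjusted p under 0.05 was found for 5 higher and 12 lower in S1pr1 KO against WT, for 2 higher and 6 lower in C3 KO against WT and for 5 higher and 6 lower in S1pr1 KO against C3 KO. These are 18.5%, 8.7% and 12% of the 92 genes, beside 18%, 11% and 12% of all genes tested. DESeq2 called 9, 1 and 3 of them in these comparisons (9.78%, 1.09% and 3.26%, beside 6.34%, 0.987% and 1.57% of all genes with an adjusted p), and limma voom 8, 0 and 2 (8.7%, 0% and 2.17%, beside 4.71%, 0.114% and 0.178% of all genes). Medians lay between -0.042 and -0.023.

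Lox, the oxidase that starts collagen and elastin cross-links, showed the lowest p of these genes between the knockouts. It was at 5.65, 7.75, 5.28 and 4.30 FPKM in S1pr1 KO, at 9.77, 12.7, 19.1 and 15.5 FPKM in C3 KO and at 7.68, 10.6, 11.2 and 11.4 FPKM in WT. S1pr1 KO lay below C3 KO in each library and met WT at S1pr1 KO 2 and WT 1. The value of S1pr1 KO was -1.30 (SE 0.21, edgeR adjusted p = 0.0665) against C3 KO and -0.83 (SE 0.21, edgeR adjusted p = 0.0727) against WT, and that of C3 KO against WT was 0.48 (SE 0.21, edgeR adjusted p = 0.434). Its relative Loxl3 averaged 3.99 ± 0.35, 3.93 ± 0.508 and 4.35 ± 0.388 FPKM in S1pr1 KO, C3 KO and WT.

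Of the enzymes and chaperones of the endoplasmic reticulum, Plod3, a lysyl hydroxylase, was at 17.4, 19.1, 18.1 and 17.9 FPKM in S1pr1 KO, below each of 20.2, 20.6, 20.2 and 20.9 FPKM in C3 KO and 21.3, 19.7, 22.1 and 20.4 FPKM in WT (-0.20 against WT, SE 0.0497, edgeR adjusted p = 0.066). P3h3, of the prolyl 3-hydroxylase family, averaged 15.8 ± 1.61, 15.2 ± 1.19 and 17.4 ± 1.15 FPKM in S1pr1 KO, C3 KO and WT. Serpinh1, the collagen chaperone HSP47, averaged 159.6 ± 39.9 FPKM in S1pr1 KO, 175 ± 28.1 FPKM in C3 KO and 137 ± 19.7 FPKM in WT. Tmem38b, a channel of the endoplasmic reticulum, averaged 8.09 ± 0.236, 8.51 ± 0.639 and 9.18 ± 0.941 FPKM in the same order. Adamts14, which removes the amino-terminal propeptide, was at 3.45, 3.17, 2.57 and 2.66 FPKM in S1pr1 KO, at 2.35, 2.59, 2.26 and 1.95 FPKM in C3 KO and at 1.94, 1.69, 2.48 and 2.19 FPKM in WT (0.52 in S1pr1 KO against WT, SE 0.14, edgeR adjusted p = 0.0815). Tll1, a protease related to the carboxy-terminal proteinase, averaged 1.16 ± 0.24 FPKM in S1pr1 KO, 0.908 ± 0.0594 FPKM in C3 KO and 1.39 ± 0.373 FPKM in WT (-0.62 in C3 KO against WT, SE 0.19, edgeR adjusted p = 0.326).

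Fmod, the fibril-binding proteoglycan fibromodulin, was at 5.13, 6.47, 4.07 and 4.43 FPKM in S1pr1 KO, at 6.80, 4.74, 4.47 and 5.64 FPKM in C3 KO and at 8.11, 7.48, 7.67 and 7.67 FPKM in WT. Both knockouts lay below WT without overlap (-0.62 with edgeR adjusted p = 0.0628 in S1pr1 KO and -0.52 with edgeR adjusted p = 0.315 in C3 KO, SE 0.15 each). The same held for 5.44% of all genes in S1pr1 KO and 2.85% in C3 KO. Fmod was named for its low p, and both knockouts were set against the same 4 WT libraries. Prelp, which links basement membranes to matrix, averaged 124 ± 10.4 FPKM in S1pr1 KO, 143 ± 16.0 FPKM in C3 KO and 152 ± 5.30 FPKM in WT. Ddr2, a receptor kinase for fibrillar collagen, was at 16.8, 18.0, 16.9 and 17.2 FPKM in S1pr1 KO, at 17.8, 16.3, 15.7 and 15.8 FPKM in C3 KO and at 13.4, 16.1, 11.8 and 14.3 FPKM in WT. Both knockouts averaged above WT (17.2 FPKM in S1pr1 KO, 16.4 FPKM in C3 KO and 13.9 FPKM in WT). The fold change of Ddr2 in S1pr1 KO against WT was 0.31 (SE 0.081, edgeR adjusted p = 0.0756). The collagen receptor chain Itga11 averaged 1.10 ± 0.0981 FPKM in S1pr1 KO, 0.888 ± 0.147 FPKM in C3 KO and 0.779 ± 0.0738 FPKM in WT (0.50 in S1pr1 KO against WT, SE 0.14, edgeR adjusted p = 0.0914).

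Among partners of type IV collagen in the basement membrane, the laminin chain Lamb1 was at 18.9, 18.4, 17 and 16.5 FPKM in S1pr1 KO, at 18.0, 20.1, 20.7 and 19.5 FPKM in C3 KO and at 20.9, 20.5, 22.8 and 20.9 FPKM in WT (-0.26 in S1pr1 KO against WT, SE 0.063, edgeR adjusted p = 0.0628). Lamb1 was named for its low p, and like Col4a1, Col4a2 and Col4a4 it lay below WT in each S1pr1 KO library, as did 5.44% of all genes. Of the 17 listed partners, 10 were lower and 7 higher in S1pr1 KO against WT, with a median of -0.033. Lama4, the laminin chain of vessels, averaged 11.9 ± 0.485, 11.2 ± 0.411 and 13.2 ± 0.59 FPKM in S1pr1 KO, C3 KO and WT (-0.14, SE 0.052, edgeR adjusted p = 0.172 in S1pr1 KO and -0.24, SE 0.052, edgeR adjusted p = 0.242 in C3 KO, each against WT). Pdgfra, the fibroblast receptor for platelet-derived growth factor, averaged 29.3 ± 1.02 FPKM in S1pr1 KO, 38.0 ± 2.02 FPKM in C3 KO and 36.3 ± 3.65 FPKM in WT (-0.31 in S1pr1 KO against WT, SE 0.071, edgeR adjusted p = 0.057). Tgfb3, a ligand that induces collagen, averaged 9.85 ± 0.62, 9.86 ± 0.73 and 12.1 ± 1.90 FPKM in S1pr1 KO, C3 KO and WT. The summed FPKM of 14 fibroblast markers was 1809 to 1886 in S1pr1 KO, 1879.7 to 2107 in C3 KO and 1987 to 2468 in WT. Of the 14, 13 were lower in S1pr1 KO and 11 in C3 KO, each against the same WT libraries, with none passing. Across all genes 49.8% were higher in each knockout than in WT. Pdgfra itself is 1 of the 14 markers. The part of these markers in the values above was not tested.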

How the data were processed

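RNA was sequenced from 12 lung libraries, grouped by the genotype labels; replicate numbers follow the order of deposition and pair nothing. The deposited count table holds whole-number read counts per gene, 1 column per library. The deposited FPKM table divides the same counts by the listed gene length and an effective library size, by the authors, whose ratio to the TMM size was 0.997 to 1.01. Per the submitters' processing notes, which give no versions, CASAVA and STAR were used with the builds GRCm39 and mm39. For the counting tool, strand setting and annotation, the entry is: not given in the sources used here. Overlapping genes may therefore share reads.

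The test of the counts was that of edgeR 4.0.16 under R 4.3.3 (filterByExpr, TMM, quasi-likelihood F test, a mean for each of 3 groups, 9 residual degrees of freedom), with Benjamini-Hochberg adjustment over 20229 genes and a threshold of 0.05. The fit was tested on simulated data. The SE is the absolute log2 fold change divided by the square root of F. Libraries of a group differed by at least 13.6 times counting noise (chi-square per degree of freedom), so none was the same library deposited again; whether they share a mouse is not answered by this.

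Classes follow the textbook structure of each type; basement membrane means types IV, VII, XV and XVIII. Values in each library are given for up to 4 most abundant fibrillar and basement membrane genes, up to 2 of each other class, each gene with an unadjusted p under 0.05 and partner chains; from each pathway list the 2 genes of lowest p against WT are named. Col10a1, Col19a1, Gpihbp1 and the cartilage and Schwann cell markers were chosen after their values had been seen. The members and lists were chosen with earlier results of these data known.

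Alternatives were DESeq2 1.42.0, limma 3.58.1 (voom with quality weights; also log2 of FPKM plus 1 or plus 0.1, for genes reaching 0.5 FPKM in 4 or more libraries), scaling by RLE or by the upper quartile, no filter, 1 CPM in 4 libraries, a robust fit, only the groups compared, and leaving out libraries.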

Additional observations from a re-analysis of the deposited data

Results flagged for a closer look

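Of 153 groups of 4 libraries (51 quantities in 3 genotypes), 9 held a library far from the others, judged by its gap to the nearest library relative to the range of the group; chance alone gives about 1 in 20 groups. Of the cartilage collagens, C3 KO 1 was highest of its group for Col10a1 at 0.598 FPKM (the others 0.0177 to 0.0373) and for Col2a1 at 0.24 FPKM (0.018 to 0.0378). WT 2 was highest of its group for Col9a2 at 0.753 FPKM (0.141 to 0.212) and Col11a1 at 0.148 FPKM (0.0252 to 0.0386). WT 4 was lowest of its group for Col9a1 at 0.0431 FPKM (0.157 to 0.179). Col24a1, a minor fibrillar chain, was highest at 0.162 FPKM in S1pr1 KO 4 (0.123 to 0.128) and at 0.155 FPKM in WT 2 (0.067 to 0.0766). The transmembrane collagen Col13a1 was lowest of C3 KO at 14.8 FPKM in the library labelled C3 KO 4 (21.8 to 22.3). The summed type VI genes were lowest of WT at 142 FPKM in WT 4 (167 to 169).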

How the results depend on the processing

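The collagen gene called in S1pr1 KO against WT, Col28a1, was also called with limma voom, other scaling, other filters and a robust fit. It was called too with only the groups compared and without both doubtful libraries. With log2(FPKM + 1) it was called at a smaller value (0.42, limma adjusted p = 0.0411). With log2(FPKM + 0.1) the collagen count was 0 (Col28a1 1.09, limma adjusted p = 0.0689). Col28a1 reached the 0.5 FPKM required by both FPKM fits only in S1pr1 KO libraries, so these fits cannot count as support for the call. With DESeq2 the collagen count was 3, and leaving out each library in turn gave 0 to 1. In S1pr1 KO against C3 KO the collagen count of 0 became 4 with DESeq2 and 1 with limma voom, and 0 to 1 when leaving out each library. In C3 KO against WT it was 0 under all alternatives run.

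Over all genes, the 274 calls in S1pr1 KO against WT became 1279 with DESeq2, 953 with limma voom, 171 with log2(FPKM + 1), 150 with log2(FPKM + 0.1) and 473 without both the library labelled S1pr1 KO 2 and that labelled C3 KO 4. Leaving out 1 library gave 2 (without S1pr1 KO 4) to 571 (without the library labelled C3 KO 4), with 5 without WT 4, 45 without WT 1, 51 without WT 2, 64 without WT 3, 80 without S1pr1 KO 1, 128 without the library labelled S1pr1 KO 2 and 60 without S1pr1 KO 3. In C3 KO against WT, 2 calls became 172 with DESeq2, 23 with limma voom, 6 with either FPKM scale, 1 with only the groups compared and 31 without both libraries, and leaving out 1 library gave 1 to 32 (without the library labelled C3 KO 4). In S1pr1 KO against C3 KO, 0 calls became 317 with DESeq2, 36 with limma voom, 7 with log2(FPKM + 1), 6 with log2(FPKM + 0.1), 15 with no filter and 3 without both libraries, and 0 to 13 leaving out 1 library. Pathway calls of 0 became 9 with DESeq2, 8 with limma voom, 1 with only the groups compared and 5 without both libraries in S1pr1 KO against WT, 1 with DESeq2 in C3 KO against WT, and 3 with DESeq2, 2 with limma voom and 1 with no filter in S1pr1 KO against C3 KO; leaving out 1 library gave 0 to 2, 0 and 0 to 1. The cause was not tested.

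Signs under the alternatives were counted only for the most abundant members of each class and those with an unadjusted p under 0.05. Of their 1184 values against WT, 24 had the opposite sign, all of genes far from the threshold. The other members, among them Col9a1 (0.015, SE 0.85 in S1pr1 KO against WT), were not counted. In C3 KO against WT, Col1a1 was 0.095 with limma voom and 0.048 without both libraries, and Col1a2 0.036 and 0.011. In S1pr1 KO against WT, Col6a6 was -0.00082 without both libraries, and 0.00090 to 0.66 leaving out each library. Leaving out each library gave -0.27 to 0.061 for Col1a1, -0.16 to 0.011 for Col1a2, -0.15 to 0.23 for Col3a1, -0.047 to 0.11 for Col5a2 and -0.11 to 0.050 for Col4a6 in C3 KO against WT, and -0.28 to 0.050 for Col1a1, -0.11 to 0.27 for Col3a1 and -0.048 to 0.11 for Col5a2 in S1pr1 KO against WT. Summed class levels use the deposited FPKM, so among the alternatives only leaving out libraries could change them. Leaving out 1 library of a group cannot move its mean by 1 SD, so the alternatives did not test these sums. Genes under 0.1 FPKM rest on few counts, and at this depth only large differences in them are detectable. No paired analysis was possible because the replicate numbers only follow the order of deposition.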
